A study of Homo sapiens with 12 samples.

Results

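The genes described here are 47 named genes of cell adhesion: 12 integrin subunits, 7 laminin chains, 5 collagens and fibronectin, 5 genes of the adherens junction, 7 of the desmosome, 6 of the tight junction and nectins, and 4 other adhesion molecules of the cell surface. They were picked by name from the 60902 genes of the deposited table, with earlier results of these data known. Counts of these genes set beside all tested genes are therefore a description. Each gene was matched to its own Ensembl identifier. Of the 47, 41 averaged at least 1 TPM over the 12 libraries and were tested, among 13854 genes of the series that did so. TPM is a transcript level per length, relative to all transcripts of a library. The other 6 (ITGB6, ITGB8, LAMA4, CDH1, PKP2 and EPCAM) were below 1 TPM in every library and are given only as levels.

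Integrins are receptors of an alpha and a beta subunit that hold cells to the extracellular matrix and signal through adaptor proteins at focal adhesions. Laminins and type IV collagen build the basement membrane on which epithelial cells rest, while fibronectin and the fibrillar collagens belong to the interstitial matrix. Cadherins and catenins join neighbouring cells at adherens junctions and desmosomes, and claudins, occludin and their scaffolds seal the space between cells at tight junctions.

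A549/DDP cells, which descend from A549, an established line of human lung adenocarcinoma, and resist cisplatin, were sequenced in 4 groups of 3 libraries. TRF+DDP cells received both time-restricted feeding medium and DDP, that is cisplatin, a platinum compound that damages DNA, TRF cells received the medium alone, DDP cells received cisplatin alone, and CON cells received neither. In each 24 h cycle the TRF medium was normal for 6 h, then lacked serum and glucose for 18 h, whereas CON medium held 2 g/L glucose and 10% serum throughout. The comparisons asked what the medium, the drug and their combination changed in resistant cells. The study states a dose and time of DDP for a qPCR of these cells but not for the sequencing itself, and the line was kept in DDP to maintain resistance, with no statement of a withdrawal, so it is not known how long CON and TRF cells had been free of the drug. The labels give all groups as the resistant line, a single line, although the sequencing methods speak only of A549, and the study calls its replicates biological without saying how the cultures were kept apart, so p-values measure the spread between these libraries.

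From 13384 to 13500 genes reached 1 TPM in TRF+DDP libraries, 13029 to 13307 in TRF libraries, 13866 to 14028 in DDP libraries and 13726 to 13854 in CON libraries, and TPM keeps no record of read depth, so no counting interval can be given. Mitochondrially encoded genes took 8.28% to 8.55% of the TPM in TRF+DDP, 6.37% to 8.84% in TRF with replicate 3 the lowest, 9.88% to 9.99% in DDP and 10.3% to 10.8% in CON, so both measures were lower with restricted medium, and their part in the results was not tested. Keratins of simple epithelium were high in all groups (KRT7 averaged 1103 TPM in TRF+DDP, 1426 TPM in TRF, 1077 TPM in DDP and 942 TPM in CON). The epithelial mucin MUC1 averaged 4.69 TPM in TRF+DDP, 4.70 TPM in TRF, 19.1 TPM in DDP and 32.4 TPM in CON, the epithelial factor ELF3 was lower in the same groups, and 3 of the 8 epithelial markers, CDH1, EPCAM and KRT19, averaged under 1 TPM in every group. Of the other lineages, 0 of 10 endothelial, 1 of 11 fibroblast (ACTA2) and 2 of 12 leukocyte markers (ITGAM and ITGB2) averaged at least 1 TPM over all libraries. The summed fibroblast markers lay at 27.8 to 30.9 TPM in TRF+DDP, 12.3 to 15.1 TPM in TRF, 51.7 to 58.1 TPM in DDP and 27.7 to 32.3 TPM in CON, nearly all of it ACTA2, and the defining fibroblast markers DCN, LUM and PDGFRA were under 1 TPM in each group. Summed leukocyte markers ran from 4.47 to 6.07 TPM in TRF+DDP, 2.63 to 3.01 TPM in TRF, 9.59 to 10.5 TPM in DDP and 5.64 to 6.16 TPM in CON, with PTPRC under 1 TPM in each group.

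The combination of restricted medium and cisplatin, compared with cisplatin alone, went with lower levels of most of these genes. A gene was called at a Benjamini-Hochberg adjusted p under 0.05 from limma and a fold over 1.5 on the log2(TPM + 1) scale, a scale on which the change of low genes is understated. Of the 41 tested genes 25 were called in TRF+DDP against DDP, 24 lower and 1 higher, where 33.2% of all tested genes were called, 21.4% lower and 11.8% higher. The median log2 fold change was −0.69 over the 41 genes and −0.10 over all tested genes. By role it was −1.71 in collagens and fibronectin, −1.25 in beta subunits, −0.95 in laminins, −0.61 in the desmosome, −0.57 in the tight junction and nectins, −0.47 in the adherens junction, −0.35 in other surface molecules and 0.14 in alpha subunits. Together the 47 genes took 0.281% to 0.294% of the TPM in TRF+DDP libraries, 0.301% to 0.334% in TRF libraries, 0.477% to 0.479% in DDP libraries and 0.469% to 0.477% in CON libraries. In bulk RNA, fewer expressing cells and less RNA per cell cannot be told apart. TPM is also relative to each library's own total, and other scalings raised the median of all tested genes in this comparison from −0.10 to 0.01 (quantile normalization) or 0.04 (TMM-style scaling). With quantile normalization all tested genes split into 2179 higher and 2273 lower calls, against 1631 higher and 2968 lower as reported. The genes described here lay below that median by about the same amount each way (a difference of −0.60 as reported, −0.63 and −0.57).

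**Figure D1:**
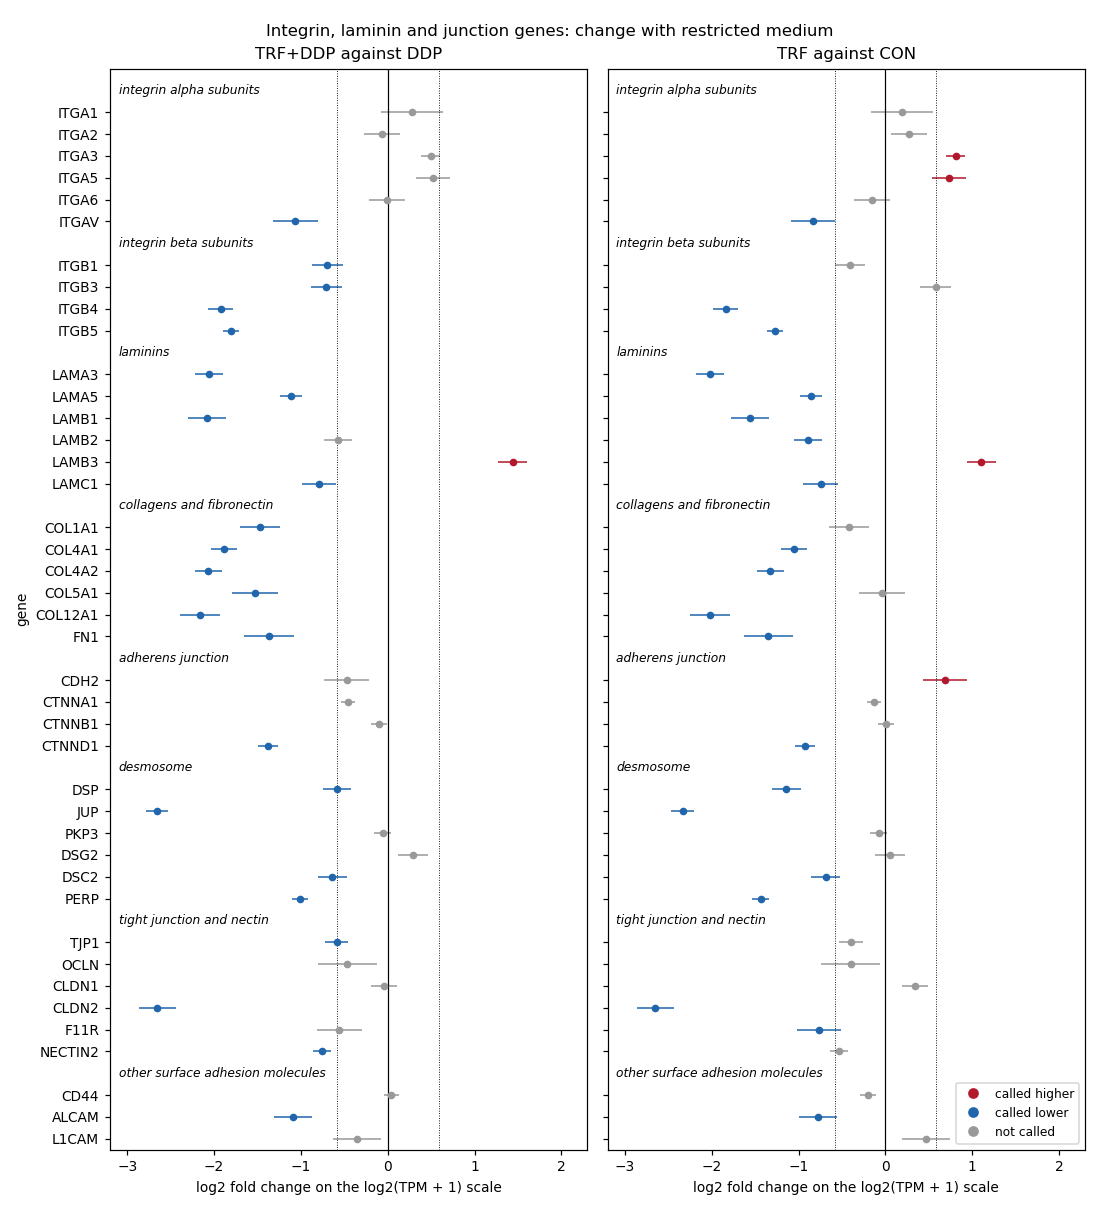
Log2 fold changes on the log2(TPM + 1) scale (x axis) of the 41 tested genes (y axis, grouped by role) in TRF+DDP against DDP (left) and TRF against CON (right). Points are limma estimates, bars are 95% confidence intervals, dotted lines mark a fold of 1.5, and colour marks the call. All 6 collagen and fibronectin genes are called lower on the left, LAMB3 is the only gene called higher there, and ITGA3, ITGA5 and CDH2 are called higher only on the right.

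Among the 6 alpha subunits only ITGAV was called in TRF+DDP against DDP (16.7%, beside 33.2% of all tested genes). ITGAV (chr2:186590065-186680901, + strand; positions here are from GENCODE v29 on GRCh38) encodes the alpha subunit of the vitronectin receptors and pairs with several beta subunits. It stood at 36.8, 34.2 and 34.8 TPM in TRF+DDP libraries, 29.5, 40.5 and 26.4 TPM in TRF libraries, 73.4, 78.6 and 72.7 TPM in DDP libraries and 56.3, 54.4 and 61.2 TPM in CON libraries. All TRF+DDP and TRF libraries were below all DDP and CON libraries, although TRF replicate 2 was well above the other TRF libraries. ITGAV fell in TRF+DDP against DDP (log2 fold change −1.06, standard error 0.117, adjusted p = 6.30e-06) and in TRF against CON (log2 fold change −0.84).

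ITGA3, a laminin receptor subunit, was the most abundant alpha subunit. It averaged 274 ± 9.22 TPM in TRF+DDP, 339 ± 18.3 TPM in TRF, 194 ± 6.16 TPM in DDP and 193 ± 10.3 TPM in CON (SD, n = 3 each). It was called higher in TRF against CON (log2 fold change 0.81, standard error 0.0507, adjusted p = 5.67e-08 by limma) and had a log2 fold change of 0.49 in TRF+DDP against DDP, below the fold required. ITGA5, the fibronectin receptor subunit, averaged 103 ± 6.33 TPM in TRF+DDP, 115 ± 5.06 TPM in TRF, 71.7 ± 7.16 TPM in DDP and 69.4 ± 8.72 TPM in CON. It too was called in TRF against CON (log2 fold change 0.73) and not in TRF+DDP against DDP (0.52), and TMM-style scaling called both genes in TRF+DDP against DDP too (0.65 for ITGA3 and 0.67 for ITGA5), as leaving out DDP replicate 1 did for ITGA5 (0.60). The ratio of ITGA3 to ITGAV was 7.78 ± 0.493 in TRF+DDP, 10.8 ± 2.06 in TRF, 2.60 ± 0.190 in DDP and 3.37 ± 0.0468 in CON.

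The remaining alpha subunits were not called in TRF+DDP against DDP, although ITGA1 was at 25.9 to 27.3 TPM in TRF+DDP libraries and 20.5 to 23.0 TPM in DDP libraries. The collagen receptor subunits ITGA1 and ITGA2 lie next to each other on chromosome 5, and their log2 differences in this comparison were 0.28 (95% interval −0.08 to 0.64) and −0.07 (95% interval −0.28 to 0.14). The value of ITGA6, a laminin receptor subunit that pairs with ITGB4 in hemidesmosomes, was −0.01 (95% interval −0.22 to 0.20).

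All 4 tested beta subunits fell in TRF+DDP against DDP, where 21.4% of all tested genes were called lower. ITGB4 (chr17:75721328-75757818, + strand) encodes the beta subunit of hemidesmosomes. Its levels were 33.7, 31.7 and 27.98 TPM in TRF+DDP libraries, 33.3, 30.5 and 30.5 TPM in TRF libraries, 121, 119.6 and 121 TPM in DDP libraries and 114, 111 and 121 TPM in CON libraries. The groups split cleanly by medium, with every TRF+DDP and TRF library at 33.7 TPM or less. ITGB4 fell in TRF+DDP against DDP (log2 fold change −1.93, standard error 0.0639, adjusted p = 1.79e-10) and in TRF against CON (log2 fold change −1.84), with no call in TRF+DDP against TRF or DDP against CON.

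ITGB5 (chr3:124761948-124901418, − strand), a vitronectin receptor subunit that pairs with ITGAV, was graded over the groups. It was measured at 97.5, 99.9 and 94.7 TPM in TRF+DDP libraries, 165, 159 and 152 TPM in TRF libraries, 344, 339 and 341 TPM in DDP libraries and 376, 373 and 404 TPM in CON libraries. TRF+DDP libraries were lowest, TRF libraries lay between, and DDP and CON libraries were highest with no overlap. ITGB5 fell in TRF+DDP against DDP (log2 fold change −1.80, standard error 0.0422, adjusted p = 1.21e-11), in TRF against CON (log2 fold change −1.27) and in TRF+DDP against TRF (−0.70). The level per library for this and 14 other genes is drawn in the plot of TPM by library.

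ITGB1, the common partner of most alpha subunits, averaged 387 ± 6.03 TPM in TRF+DDP, 459.9 ± 65.6 TPM in TRF, 628 ± 40.8 TPM in DDP and 605 ± 14.8 TPM in CON. It was called in TRF+DDP against DDP (log2 fold change −0.69), not in TRF against CON (−0.40), and the first of these calls was lost with TMM-style scaling (−0.54). ITGB3, the beta subunit of platelet and endothelial vitronectin receptors, moved in its own way. It averaged 8.34 ± 0.303 TPM in TRF+DDP, 16.6 ± 1.85 TPM in TRF, 14.3 ± 0.867 TPM in DDP and 10.8 ± 0.460 TPM in CON. ITGB3 fell in TRF+DDP against DDP (log2 fold change −0.71), a call lost with TMM-style scaling (−0.56) and quantile normalization (−0.55), and was at 0.58 in TRF against CON, just under the fold required. Without TRF replicate 3 or CON replicate 1, or with either scaling, it was called higher in TRF against CON (0.66, 0.61, 0.70 and 0.75). ITGB6 and ITGB8 were at or under 0.2 TPM in every library.

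The make-up of the beta subunits shifted along with their total. The summed TPM of the 6 beta subunits was 524 ± 10.1 in TRF+DDP, 667 ± 67.5 in TRF, 1105 ± 37.5 in DDP and 1116 ± 9.66 in CON. ITGB1 made up 73.9% ± 0.640 of that sum in TRF+DDP, 68.8% ± 2.93 in TRF, 56.8% ± 1.74 in DDP and 54.3% ± 1.66 in CON. The share of ITGB5 was 18.6% ± 0.406 in TRF+DDP, 23.9% ± 2.16 in TRF, 30.9% ± 1.18 in DDP and 34.4% ± 1.31 in CON. ITGB4 and ITGB3 made up the rest, at 5.93% and 1.59% in TRF+DDP, 4.75% and 2.50% in TRF, 10.9% and 1.29% in DDP, and 10.3% and 0.964% in CON. These shares are a description and were given no test.

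**Figure D2:**
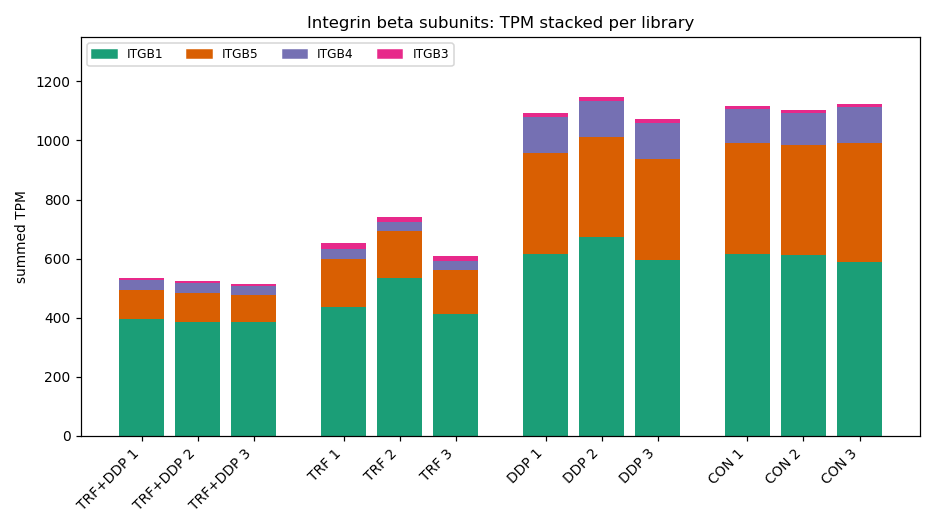
Summed TPM (y axis) of ITGB1, ITGB5, ITGB4 and ITGB3 stacked for each of the 12 libraries (x axis, grouped as TRF+DDP, TRF, DDP and CON). The stacks are lowest in TRF+DDP (mean 524 TPM for all 6 beta subunits) and highest in DDP and CON (1105 and 1116 TPM), and the ITGB5 and ITGB4 segments shrink most in proportion.

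The DNA before the start of ITGB5 is shown because this beta subunit was graded over the groups. RefSeq promoter entries on GRCh38.p14 matched 37 of the 47 genes, and the 250 bases before each start were searched on both strands for a few letter motifs. The stretch below is chr3:124901419-124901668 on the − strand, with the capitals marking GC boxes (GGGCGG or its complement CCGCCC).
ITGB5 promoter: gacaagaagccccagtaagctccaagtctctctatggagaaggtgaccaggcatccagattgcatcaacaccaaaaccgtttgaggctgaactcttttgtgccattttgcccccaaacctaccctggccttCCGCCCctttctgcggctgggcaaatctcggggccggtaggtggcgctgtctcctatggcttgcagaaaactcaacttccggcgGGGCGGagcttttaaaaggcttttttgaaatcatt
This motif was in 31 of the 37 windows (83.8%), in 42.2% of all 27305 promoter windows of that length and in 68.6% of the 10073 windows of genes tested here. A match of letters is a description and not a binding site.

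Of the 6 tested laminin chains, 4 fell and 1 rose in TRF+DDP against DDP, beside 21.4% lower and 11.8% higher over all tested genes. LAMB3 (chr1:209614870-209652466, − strand), the beta chain of the laminin of hemidesmosomes, was the only gene of the 41 called higher in this comparison, although 6 of the 41 had a log2 fold change above 0. Its levels were 101, 104 and 101 TPM in TRF+DDP libraries, 69.8, 66.9 and 58.9 TPM in TRF libraries, 40.7, 32.6 and 37.9 TPM in DDP libraries and 29.4, 30.0 and 29.7 TPM in CON libraries. The groups did not overlap, with TRF+DDP highest, TRF next, then DDP and CON. LAMB3 rose in TRF+DDP against DDP (log2 fold change 1.44, standard error 0.0770, adjusted p = 8.10e-09), in TRF against CON (log2 fold change 1.10) and in TRF+DDP against TRF (0.64), where the call was lost without TRF replicate 3 (0.57), with quantile normalization and with TMM-style scaling (0.54 each).

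LAMA3 (chr18:23689443-23956222, + strand), the alpha chain that joins LAMB3 in that laminin, went the other way. It had 9.47, 10.4 and 9.44 TPM in TRF+DDP libraries, 10.52, 12.4 and 9.85 TPM in TRF libraries, 45.7, 42.6 and 43.0 TPM in DDP libraries and 48.3, 47.3 and 46.0 TPM in CON libraries. No TRF+DDP or TRF library came near a DDP or CON library, and LAMA3 fell in TRF+DDP against DDP (log2 fold change −2.06, standard error 0.0755, adjusted p = 3.85e-10) and in TRF against CON (log2 fold change −2.02). The ratio of LAMB3 to LAMA3 was 10.5 ± 0.351 in TRF+DDP, 6.00 ± 0.618 in TRF, 0.845 ± 0.0697 in DDP and 0.630 ± 0.0186 in CON.

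LAMB1 (chr7:107923799-108003255, − strand), a beta chain of the ubiquitous laminins, was at 35.7, 34.2 and 34.7 TPM in TRF+DDP libraries, 46.5, 58.1 and 39.2 TPM in TRF libraries, 146, 152 and 153 TPM in DDP libraries and 144, 143 and 138 TPM in CON libraries. TRF replicate 2 was the highest of the TRF libraries and still far below every DDP and CON library. LAMB1 fell in TRF+DDP against DDP (log2 fold change −2.08, standard error 0.101, adjusted p = 3.95e-09) and in TRF against CON (log2 fold change −1.56). LAMA5 and LAMC1, which with LAMB1 form a main laminin of epithelial basement membranes, fell as well. Their log2 fold changes were −1.12 and −0.79 in TRF+DDP against DDP, and −0.86 and −0.75 in TRF against CON, where the call of LAMC1 was lost with TMM-style scaling (−0.56). LAMB2 averaged 117 ± 7.12 TPM in TRF+DDP, 88.3 ± 7.78 TPM in TRF, 174 ± 11.9 TPM in DDP and 165 ± 8.46 TPM in CON. It was called lower in TRF against CON (log2 fold change −0.89) and sat just short of the fold threshold in TRF+DDP against DDP (−0.57). Leaving out DDP replicate 2 or 3 or TRF+DDP replicate 1 or 2 called it there, as did quantile normalization. LAMA4 was at or under 0.16 TPM in every library. The summed TPM of the 7 chains was 430 ± 20.6 in TRF+DDP, 405 ± 30.7 in TRF, 749 ± 23.7 in DDP and 728 ± 8.51 in CON.

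Sequence near the starts of LAMB3 and LAMA3 is shown because these partner chains moved in opposite directions. The LAMB3 stretch (chr1:209652467-209652675, − strand, GRCh38.p14) ends 41 bases before the RefSeq start and holds 1 GC box, in capitals. The LAMA3 sites (chr18:23872885-23872911 and chr18:23872941-23872967, + strand) are the 2 matches to the AP-1 motif (TGAGTCA or its complement TGACTCA, in capitals) before the RefSeq start. That start lies inside the longer GENCODE gene, and all 27 bases of each stretch shown are in annotated exons.
LAMB3 promoter: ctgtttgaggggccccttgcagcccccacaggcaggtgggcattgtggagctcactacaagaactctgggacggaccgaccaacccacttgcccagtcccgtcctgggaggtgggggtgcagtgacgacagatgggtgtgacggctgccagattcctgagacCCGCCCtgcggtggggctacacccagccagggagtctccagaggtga
LAMA3 AP-1 site 1: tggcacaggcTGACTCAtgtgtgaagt
LAMA3 AP-1 site 2: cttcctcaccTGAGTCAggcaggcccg
The AP-1 motif was in the windows of 2 of the 37 genes, LAMA3 and PERP (5.41%), in 4.15% of all windows and in 2.41% of the windows of genes tested here. The LAMB3 window held no match to the AP-1 motif.

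All 6 collagen and fibronectin genes fell in TRF+DDP against DDP, beside 21.4% lower over all tested genes. Their median log2 fold change was −1.71. The fibroblast marker ACTA2 averaged 28.2 TPM in TRF+DDP, 12.7 TPM in TRF, 54.3 TPM in DDP and 29.3 TPM in CON. Its part in this result was not tested, and the fibroblast collagens COL1A2 and COL3A1 were at or under 0.27 TPM in every library. COL12A1 (chr6:75084326-75206051, − strand) encodes a collagen that decorates the surface of fibrils. It had 8.33, 7.99 and 7.73 TPM in TRF+DDP libraries, 9.89, 10.8 and 7.26 TPM in TRF libraries, 38.4, 37.7 and 41.9 TPM in DDP libraries and 41.2, 39.6 and 40.1 TPM in CON libraries. TRF+DDP and TRF libraries were at 10.8 TPM or less, and DDP and CON libraries were at 37.7 TPM or more. COL12A1 fell in TRF+DDP against DDP (log2 fold change −2.16, standard error 0.106, adjusted p = 3.90e-09) and in TRF against CON (log2 fold change −2.02).

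COL4A2 (chr13:110305812-110513209, + strand) and its neighbour COL4A1 (chr13:110148963-110307233, − strand) encode the chains of the main type IV collagen of basement membranes and are read in opposite directions from a shared start region. COL4A2 was at 87.7, 83.0 and 72.8 TPM in TRF+DDP libraries, 169, 152 and 141 TPM in TRF libraries, 352, 335 and 342 TPM in DDP libraries and 391, 372 and 398 TPM in CON libraries. COL4A1 was at 54.9, 51.5 and 47.8 TPM in TRF+DDP libraries, 95.8, 94.8 and 79.5 TPM in TRF libraries, 196, 191 and 189 TPM in DDP libraries and 186, 186 and 191 TPM in CON libraries. For both genes TRF+DDP libraries were lowest and TRF libraries lay between, with no overlap with the other groups. COL4A2 fell in TRF+DDP against DDP (log2 fold change −2.07, standard error 0.0714, adjusted p = 2.40e-10), in TRF against CON (log2 fold change −1.33) and in TRF+DDP against TRF (−0.92), and COL4A1 fell in the same comparisons (−1.88, −1.06 and −0.79). The ratio of COL4A2 to COL4A1 stayed between 1.52 and 1.61 in TRF+DDP libraries, 1.60 and 1.78 in TRF libraries, 1.75 and 1.82 in DDP libraries, and 2.00 and 2.10 in CON libraries. The annotated spans of the 2 genes overlap at their starts, and the sources used here do not say whether counting used strand.

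COL1A1 and COL5A1, chains of fibrillar collagens, were called lower with the medium only where cisplatin was present. COL1A1 averaged 5.80 ± 0.706 TPM in TRF+DDP, 10.97 ± 0.900 TPM in TRF, 17.9 ± 2.15 TPM in DDP and 15.0 ± 1.36 TPM in CON. COL5A1 averaged 6.97 ± 0.539 TPM in TRF+DDP, 17.5 ± 3.63 TPM in TRF, 22.0 ± 0.289 TPM in DDP and 17.8 ± 1.47 TPM in CON. Their log2 fold changes in TRF+DDP against DDP were −1.47 and −1.53, while in TRF against CON they were −0.42 and −0.04 and were not called. The interaction, which tests the difference between these medium effects, was called for COL1A1 at −1.05 and for COL5A1 at −1.49 (limma, adjusted p = 2.82e-04 and 5.57e-05). FN1, which encodes fibronectin, averaged 4.88 ± 0.320 TPM in TRF+DDP, 4.79 ± 1.20 TPM in TRF, 14.2 ± 1.28 TPM in DDP and 13.6 ± 1.32 TPM in CON, and fell in both medium comparisons (−1.37 with cisplatin and −1.35 without).

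The COL12A1 promoter and a pair of sites of COL4A2 are shown because these genes had the largest falls of the 5 collagens. The COL12A1 stretch is chr6:75206054-75206303 on the − strand and holds 1 GC box. The COL4A2 sites are chr13:110307169-110307193 and chr13:110307209-110307234 on the + strand, in the 126 bases between the RefSeq starts of COL4A1 and COL4A2. All 25 bases of the CCAAT stretch and 25 of the 26 bases of the GC box stretch are in annotated exons. Capitals mark the GC box or the CCAAT box (CCAAT or its complement ATTGG).
COL12A1 promoter: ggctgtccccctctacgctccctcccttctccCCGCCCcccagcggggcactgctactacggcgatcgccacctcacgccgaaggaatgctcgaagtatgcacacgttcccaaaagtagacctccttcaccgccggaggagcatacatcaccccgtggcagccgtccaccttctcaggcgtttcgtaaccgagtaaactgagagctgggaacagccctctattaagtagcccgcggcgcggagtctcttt
COL4A2 CCAAT box 1: gccgagctccCCAATttgttggcgc
COL4A2 GC box 1: ggcggtgcgcGGGCGGcgcctcaaag
The CCAAT box was in 8 of the 37 windows (21.6%), in 33.0% of all windows and in 35.0% of the windows of genes tested here.

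**Figure D3:**
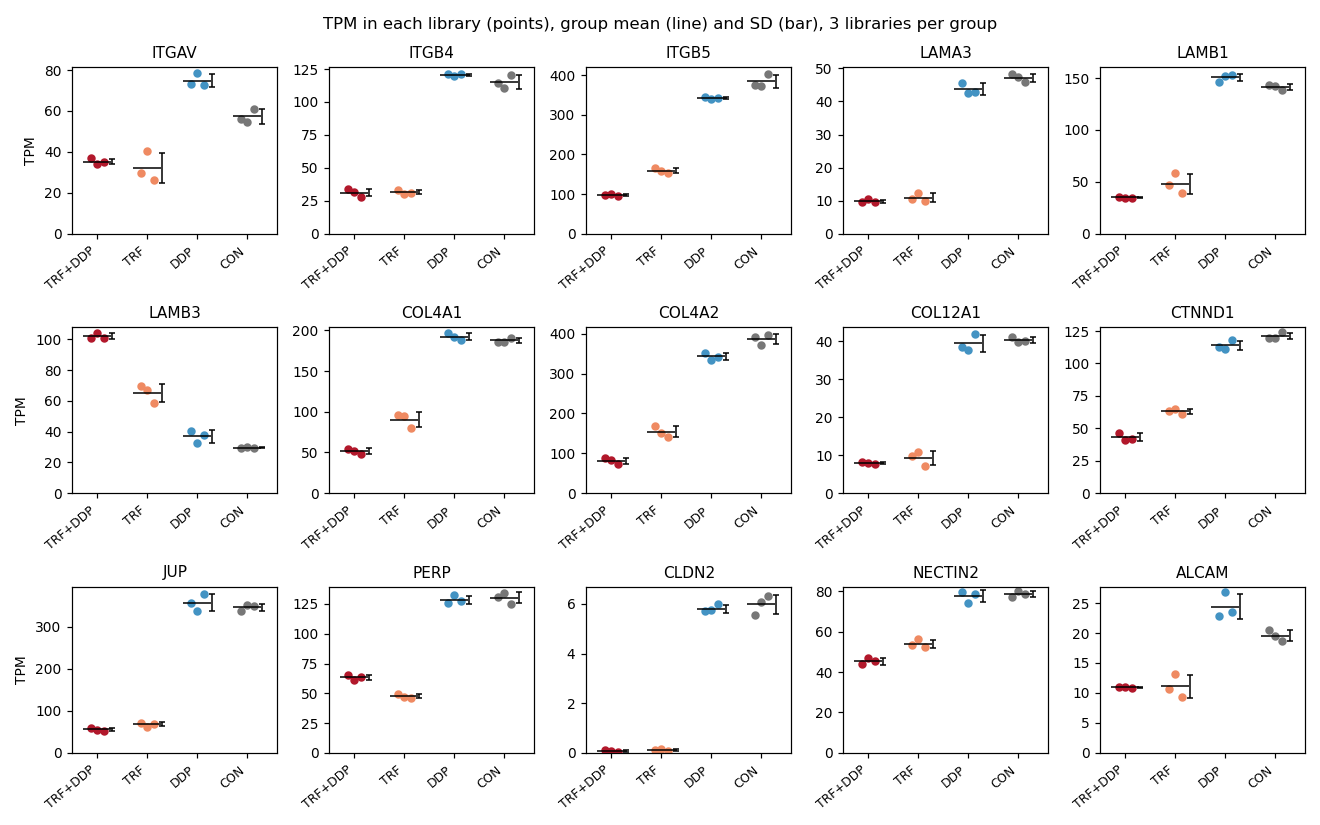
TPM (y axis, from 0) of 15 genes in each library (points), with the group mean (line) and SD (bar) of 3 libraries, in TRF+DDP, TRF, DDP and CON (x axis). LAMB3 is the only panel with TRF+DDP on top. In COL4A1, COL4A2, ITGB5, CTNND1, LAMB1, JUP and NECTIN2 the TRF libraries lie above TRF+DDP and below the other groups.

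At the adherens junction, 1 of 4 tested genes fell in TRF+DDP against DDP, near the 21.4% lower over all tested genes. CTNND1 (chr11:57753243-57819546, + strand) encodes p120-catenin, which keeps cadherins at the cell surface. Its levels were 46.7, 41.1 and 42.1 TPM in TRF+DDP libraries, 63.3, 65.1 and 61.0 TPM in TRF libraries, 113, 111 and 118 TPM in DDP libraries and 119, 119.6 and 124 TPM in CON libraries. TRF+DDP libraries were lowest, TRF libraries lay between, and DDP and CON libraries were highest. CTNND1 fell in TRF+DDP against DDP (log2 fold change −1.38, standard error 0.0510, adjusted p = 4.14e-10) and in TRF against CON (log2 fold change −0.93). Its log2 fold change in TRF+DDP against TRF was −0.54, and it was called there with quantile normalization (−0.61), with TMM-style scaling (−0.63) and without TRF+DDP replicate 1 (−0.59). A readthrough gene with TMX2 overlaps CTNND1, so reads could be split between them.

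The other catenins changed less. CTNNA1, the alpha-catenin that links cadherins to actin, averaged 157 ± 2.83 TPM in TRF+DDP and 216 ± 7.64 TPM in DDP, a log2 difference of −0.46 (95% interval −0.54 to −0.38) that was under the fold required. CTNNB1, beta-catenin, differed by −0.10 (95% interval −0.20 to −0.00) in TRF+DDP against DDP and by 0.00 (95% interval −0.09 to 0.10) in TRF against CON. CDH2, N-cadherin, averaged 4.83 ± 0.399 TPM in TRF+DDP, 8.08 ± 1.34 TPM in TRF, 7.09 ± 0.580 TPM in DDP and 4.60 ± 0.471 TPM in CON. CDH2 rose in TRF against CON (log2 fold change 0.69, standard error 0.117, adjusted p = 2.72e-04 by limma), fell in TRF+DDP against TRF (log2 fold change −0.63), and was at −0.47 in TRF+DDP against DDP, with no call. The call in TRF+DDP against TRF was lost without TRF replicate 1 or 2 (−0.57 and −0.56). CDH1, E-cadherin, the defining cadherin of epithelium, was at or under 0.07 TPM in TRF+DDP and TRF libraries and between 0.19 and 0.48 TPM in DDP and CON libraries.

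The ratio of N-cadherin to E-cadherin, as log2((CDH2 + 1)/(CDH1 + 1)), was 2.51 ± 0.141 in TRF+DDP, 3.13 ± 0.217 in TRF, 2.58 ± 0.111 in DDP and 2.10 ± 0.0458 in CON (SD, n = 3 each). TRF+DDP and DDP overlapped (exact permutation test, two-sided, p = 0.5), and the other 4 pairs of groups compared did not overlap, at p = 0.1 each, the smallest p that 3 against 3 libraries allow (0.125 adjusted over the 5 comparisons). In TRF+DDP against DDP the 2 terms nearly cancelled, with a log2(TPM + 1) difference of −0.47 for CDH2 and −0.40 for CDH1, and in TRF+DDP against CON nearly all of the difference came from CDH1 (0.06 for CDH2 and −0.35 for CDH1). With CDH1 under 1 TPM everywhere the ratio also turned on the pseudocount. With a pseudocount of 0.1 the difference in TRF+DDP against DDP changed sign, to 1.34, with no overlap (exact p = 0.1), and the differences grew to 1.79 in TRF+DDP against CON (0.41 as reported) and 2.45 in TRF against CON (1.03 as reported).

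In the desmosome, 4 of 6 tested genes fell in TRF+DDP against DDP, beside 21.4% lower over all tested genes. JUP (chr17:41754604-41786931, − strand) encodes plakoglobin, the catenin that desmosomes and adherens junctions share, and had the largest fall of the 41 genes on the log2(TPM + 1) scale. It was at 58.6, 55.1 and 53.2 TPM in TRF+DDP libraries, 71.2, 62.5 and 69.8 TPM in TRF libraries, 356, 337 and 379 TPM in DDP libraries and 337, 353 and 349.6 TPM in CON libraries. Every TRF+DDP and TRF library was at 71.2 TPM or less and every DDP and CON library at 337 TPM or more. JUP fell in TRF+DDP against DDP (log2 fold change −2.66, standard error 0.0586, adjusted p = 7.82e-12) and in TRF against CON (log2 fold change −2.34). The ratio of JUP to CTNNB1, its close relative, was 0.263 ± 0.00945 in TRF+DDP, 0.306 ± 0.0333 in TRF, 1.58 ± 0.154 in DDP and 1.56 ± 0.0623 in CON.

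PERP (chr6:138088505-138107511, − strand) encodes a tetraspan protein of desmosomes that is also known as a target of p53. It had 65.5, 61.0 and 63.6 TPM in TRF+DDP libraries, 49.3, 47.0 and 46.3 TPM in TRF libraries, 126, 133 and 127 TPM in DDP libraries and 131, 135 and 125 TPM in CON libraries. Here TRF libraries were lowest and TRF+DDP libraries lay between TRF and the groups in normal medium. PERP fell in TRF+DDP against DDP (log2 fold change −1.01, standard error 0.0448, adjusted p = 1.70e-09) and in TRF against CON (log2 fold change −1.44). DSP, desmoplakin, which ties desmosomes to keratin filaments, averaged 11.1 ± 0.189 TPM in TRF+DDP, 8.31 ± 0.860 TPM in TRF, 17.1 ± 0.995 TPM in DDP and 19.5 ± 0.517 TPM in CON. Its log2 fold change was −0.59 in TRF+DDP against DDP, a call that was lost without DDP replicate 1 or 2 or TRF+DDP replicate 3 and with either scaling, and −1.14 in TRF against CON. The desmosomal cadherin DSC2 fell in both comparisons (−0.64 and −0.69), calls that were lost with either scaling. The desmosomal cadherin DSG2, which lies near DSC2 on chromosome 18, had 0.29 (95% interval 0.11 to 0.47) in TRF+DDP against DDP, and the plakophilin PKP3 had −0.06 (95% interval −0.16 to 0.04), with no call for either. Its relative PKP2 was at or under 0.53 TPM in every library.

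Of 6 tight junction and nectin genes, 3 fell in TRF+DDP against DDP, beside 21.4% lower over all tested genes. CLDN2 (chrX:106900164-106930861, + strand) encodes a claudin that forms cation channels between cells. Its levels were 0.120, 0.0900 and 0.0400 TPM in TRF+DDP libraries, 0.120, 0.140 and 0.0700 TPM in TRF libraries, 5.70, 5.74 and 6.00 TPM in DDP libraries and 5.54, 6.06 and 6.33 TPM in CON libraries. CLDN2 was thus near 0 in all libraries with restricted medium and at 5.54 TPM or more in all others, so its log2 fold changes on the log2(TPM + 1) scale (−2.65 in TRF+DDP against DDP and −2.65 in TRF against CON) understate the change. It passed the filter of 1 TPM only through its level in DDP and CON libraries, so its calls are a description, and with 1 TPM required in every library the counts of called genes were 24 in TRF+DDP against DDP and 23 in TRF against CON. With a pseudocount of 0.1 they were −5.04 and −4.87.

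NECTIN2 (chr19:44846175-44889228, + strand), an immunoglobulin-like adhesion molecule that also binds receptors of lymphocytes, was at 43.8, 47.2 and 45.4 TPM in TRF+DDP libraries, 53.5, 56.2 and 52.5 TPM in TRF libraries, 79.6, 74.1 and 78.8 TPM in DDP libraries and 77.1, 80.4 and 78.5 TPM in CON libraries. TRF+DDP libraries were below TRF libraries, and both were below the other groups. NECTIN2 fell in TRF+DDP against DDP (log2 fold change −0.76, standard error 0.0464, adjusted p = 2.68e-08), and its log2 fold change of −0.53 in TRF against CON was under the fold required. TJP1, the scaffold ZO-1, averaged 24.2 ± 0.616 TPM in TRF+DDP, 27.2 ± 2.19 TPM in TRF, 37.0 ± 1.89 TPM in DDP and 36.1 ± 0.714 TPM in CON. Its call in TRF+DDP against DDP (log2 fold change −0.59) was lost without DDP replicate 2 or TRF+DDP replicate 1 and with either scaling. F11R, the junctional molecule JAM-A, was called lower in TRF against CON (−0.77) and was at −0.56 in TRF+DDP against DDP, where it was called on leaving out DDP replicate 2 or TRF+DDP replicate 1 or 2. OCLN, occludin, and CLDN1, the claudin of epidermal barriers, were not called, at −0.47 (95% interval −0.81 to −0.12) and −0.04 (95% interval −0.19 to 0.10) in TRF+DDP against DDP.

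Of the 3 other tested surface molecules, ALCAM fell (33.3%, beside 21.4% lower over all tested genes). ALCAM (chr3:105366909-105576900, + strand), an immunoglobulin-like adhesion molecule, was at 10.96, 10.9 and 10.8 TPM in TRF+DDP libraries, 10.7, 13.2 and 9.38 TPM in TRF libraries, 22.9, 26.9 and 23.5 TPM in DDP libraries and 20.5, 19.5 and 18.8 TPM in CON libraries. Its levels in TRF+DDP and TRF libraries were all below those of DDP and CON libraries, with log2 fold changes of −1.09 (adjusted p = 1.16e-06 from limma) in TRF+DDP against DDP and −0.78 in TRF against CON. CD44, the hyaluronan receptor, was among the most abundant of these genes and differed little, with 487 ± 26.6 TPM in TRF+DDP, 401 ± 11.9 TPM in TRF, 472 ± 7.66 TPM in DDP and 461 ± 7.06 TPM in CON and a log2 difference of 0.04 (95% interval −0.05 to 0.13) in TRF+DDP against DDP. L1CAM, an adhesion molecule first known from neurons, averaged 18.8 ± 1.21 TPM in TRF+DDP, 30.1 ± 4.76 TPM in TRF, 24.5 ± 3.90 TPM in DDP and 21.4 ± 2.17 TPM in CON. It fell in TRF+DDP against TRF (log2 fold change −0.64), a call lost without TRF replicate 1 (−0.52). EPCAM, an epithelial surface marker, was at or under 0.2 TPM in every library.

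The restricted medium alone changed a similar number of these genes. In TRF against CON 24 of the 41 were called, 20 lower and 4 higher, where 25.6% of all tested genes were called, 17.1% lower and 8.41% higher, and the median log2 fold change was −0.53 over the 41 genes and −0.11 over all tested genes. The balance over all tested genes depended on the scaling, with 1165 higher and 2375 lower as reported, 1625 and 1635 with quantile normalization, and 1949 and 1602 with TMM-style scaling, while these genes split into 5 higher and 19 lower and into 6 higher and 18 lower. This comparison shares no library with TRF+DDP against DDP. A set of 18 genes fell in both (ITGAV, ITGB4, ITGB5, LAMA3, LAMA5, LAMB1, LAMC1, COL4A1, COL4A2, COL12A1, FN1, CTNND1, DSP, JUP, DSC2, PERP, CLDN2 and ALCAM), LAMB3 rose in both, and no gene was called in opposite directions. These 18 are 75.0% of the 24 genes lower in TRF+DDP against DDP and 90.0% of the 20 lower in TRF against CON. Over all tested genes 1642 fell in both, 55.3% of the 2968 lower in TRF+DDP against DDP and 69.1% of the 2375 lower in TRF against CON.

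The interaction, (TRF+DDP minus DDP) minus (TRF minus CON), tests whether the medium effect differed with cisplatin, and was called on the adjusted p alone. It was called below 0 for 16 and above 0 for 5 of the 41 genes, where 29.8% of all tested genes were called, 16.3% below 0 and 13.5% above 0. Called or not, the estimate was negative for 30 and positive for 11 of the 41. The most negative values were those of COL5A1 (−1.49), ITGB3 (−1.28), CDH2 (−1.16) and COL1A1 (−1.05), and 4 of the 6 matrix genes were among the 16. In ITGB3, CDH2 and L1CAM the medium effect was negative with cisplatin and positive without it under each scaling, and in CLDN1 it was −0.04 and 0.34, or 0.11 and 0.52 with TMM-style scaling. The 5 called above 0 were DSP (0.55) and PERP (0.43), which fell less with the medium when cisplatin was present, LAMB3 (0.34), LAMB2 (0.32) and CD44 (0.25). The calls of LAMB3 and LAMB2 were lost with either scaling and on leaving out several of the libraries, among them TRF replicate 3.

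**Figure D4:**
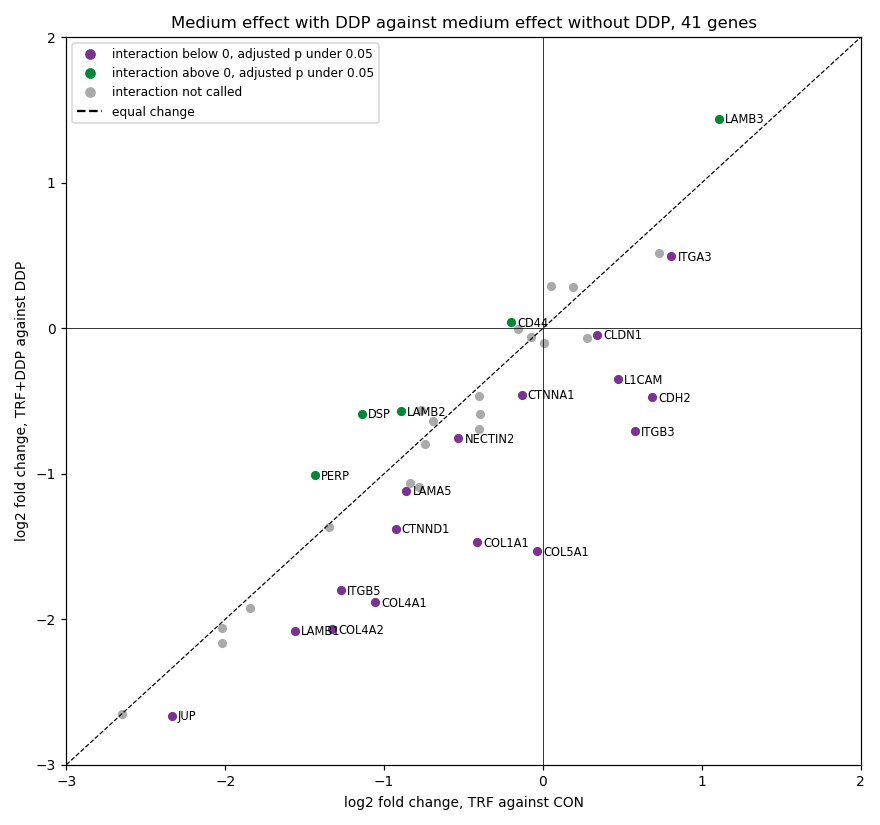
Log2 fold change of the 41 genes in TRF+DDP against DDP (y axis) and in TRF against CON (x axis), each point a gene. The dashed line marks equal change, and colours mark the 16 genes with an interaction below 0 and the 5 above 0 at an adjusted p under 0.05. COL5A1, ITGB3, CDH2, COL1A1, COL4A1 and L1CAM lie farthest below the line and DSP and PERP farthest above it.

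Within restricted medium, cisplatin went with lower levels of 8 genes and a higher level of 1. Over all tested genes 16.3% were called in TRF+DDP against TRF, 6.10% lower and 10.2% higher, and the median log2 fold change was −0.11 over the 41 genes and 0.06 over all tested genes. Higher calls outnumbered lower ones over all tested genes as reported (1413 and 845) but not with quantile normalization (1049 and 1066) or TMM-style scaling (1109 and 1119), while of these genes 0 were then higher and 9 lower with each. The genes that fell were the collagens COL5A1 (−1.20), COL4A2 (−0.92), COL1A1 (−0.82) and COL4A1 (−0.79), the beta subunits ITGB3 (−0.91) and ITGB5 (−0.70), and L1CAM and CDH2. LAMB3 was the gene that rose. None of the desmosome or tight junction genes was called, although F11R was called higher without TRF replicate 2 or TRF+DDP replicate 3 (0.59 each).

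Against cells with neither treatment, the combination went with lower levels of 21 genes and higher levels of 2. Over all tested genes 35.1% were called in TRF+DDP against CON, 19.5% lower and 15.6% higher, and the median log2 fold change was −0.64 over the 41 genes and −0.03 over all tested genes. JUP (−2.62), CLDN2 (−2.69), COL4A2 (−2.24), COL12A1 (−2.20) and LAMA3 (−2.16) fell most. LAMB3 (log2 fold change 1.75) and ITGA1 (0.69) rose, but the call of ITGA1 rested on CON replicate 1, at 11.2 TPM against 20.0 and 18.5 TPM in the other CON libraries, and was lost without it (0.45). TMM-style scaling gave 5 higher and 20 lower, with ITGA3 (0.59), ITGA5 (0.65) and CLDN1 (0.62) called higher and the call of ITGB1 lost (−0.56), and ITGA5 was also called without CON replicate 2 (0.66) or TRF+DDP replicate 3 (0.61).

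Cisplatin alone left these genes below the threshold. In DDP against CON 0 of the 41 were called by limma, where 2.01% of all tested genes were called, 1.86% higher and 0.159% lower, and the median log2 fold change was 0.06 both over the 41 genes and over all tested genes. At an unadjusted p under 0.05, 12 were higher and 4 lower, where 21.0% of all tested genes were higher and 6.19% lower. At an adjusted p under 0.05 with no fold required 5 were higher (ITGA2, ITGB3, LAMB3, CDH2 and CLDN1) and 1 was lower (ITGB5), where 10.0% of all tested genes were higher and 2.17% lower. CLDN1 came closest to a call, with 39.6 ± 1.96 TPM in DDP and 26.1 ± 0.794 TPM in CON (log2 fold change 0.58, standard error 0.0675, adjusted p = 1.79e-04 by limma), then CDH2 (log2 fold change 0.53). With a pseudocount of 0.1 both passed the fold. CLDN1 was also called on leaving out CON replicate 2 or DDP replicate 1 or 3, and CDH2 on leaving out CON replicate 2 or DDP replicate 3.

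Many of these genes are long, with annotated spans of 12005 (LAMB2) to 324068 bases (CTNNA1) and a median of 65813 bases for the 41, against 29284 bases for all tested genes with a span. Across genes, the Spearman correlation between span and log2 fold change in TRF+DDP against DDP was −0.22 for the 41 genes and −0.28 for 13590 tested genes, and in TRF against CON −0.08 and −0.08. Genes are not independent replicates, they share the same libraries, and the part of length in the falls was not tested. Of the 47 genes, 36 overlap another annotated gene, 14 of them a protein-coding one.

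Other genes of cell adhesion were counted in 11 lists, whose median log2 fold changes in TRF+DDP against DDP ran from −0.85 (tight junction and polarity) to 0.49 (cadherins, catenins and nectins), beside −0.10 over all tested genes. The counts of these lists stand beside 21.4% lower and 11.8% higher over all tested genes in this comparison. The basement membrane list had 4 of 7 tested genes lower and 0 higher, led by COL18A1, the precursor of endostatin, at 32.6 ± 1.801 TPM in TRF+DDP and 165 ± 4.24 TPM in DDP (log2 fold change −2.31), and by COL4A5 (−1.71). Of 4 other integrins, ITGB2, the leukocyte beta subunit, fell (−1.84), to 0.703 TPM in TRF+DDP, so its call is a description. Of 5 hemidesmosome genes, COL17A1, the transmembrane collagen of hemidesmosomes, rose by 2.13 on the log2 scale, with 7.83 ± 0.489 TPM in TRF+DDP and 1.02 ± 0.0961 TPM in DDP, and DST, which anchors keratins there, fell (−0.91).

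In the interstitial matrix list 7 of 14 fell and 2 rose. The matricellular genes CCN2 (log2 fold change 2.04) and CCN1 (1.69) rose, with 79.0 ± 0.225 and 141 ± 4.19 TPM in TRF+DDP and 18.5 ± 0.117 and 43.1 ± 2.57 TPM in DDP, while VTN, vitronectin (−2.73), and FBN1, fibrillin (−2.17), fell most. Among matrix enzymes and inhibitors 7 of 15 fell, led by the gelatinase MMP2 (−1.75) and the collagen crosslinker LOXL2 (−1.50), and 3 rose, led by the protease inhibitor TIMP1 (0.92) and the prolyl hydroxylase P4HA2 (0.86). Of 36 integrin adaptors 12 fell and 0 rose, where 21.4% of all tested genes were lower and 11.8% higher. The falls were led by LPP (−2.66) and TNS3 (−2.20), both focal adhesion proteins.

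Cell to cell genes were split. Of 14 other cadherins, catenins and nectins 7 rose, led by the catenin ARVCF (log2 fold change 1.14) and the protocadherin PCDH1 (1.09), and 3 fell, with CDH4 (−0.99) and FAT1 (−0.87) lowest. Of 15 other tight junction and polarity genes 8 fell and 0 rose, led by the scaffold MAGI1 (−2.53) and the polarity protein LLGL2 (−2.49). Of 4 other desmosome genes PPL, periplakin (−1.86), and PKP4 (−0.83) fell, and of 3 gap junction genes the channel gene PANX1 rose (0.88). Of 17 other surface molecules 3 fell, led by the laminin receptor BCAM (−2.78) and SDC2 (−1.75), and 2 rose, SDC4 (0.80) and ICAM1 (0.77). Only the counts of the 17 surface molecules were near the shares over all tested genes on both sides, 21.4% lower and 11.8% higher.

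**Figure D5:**
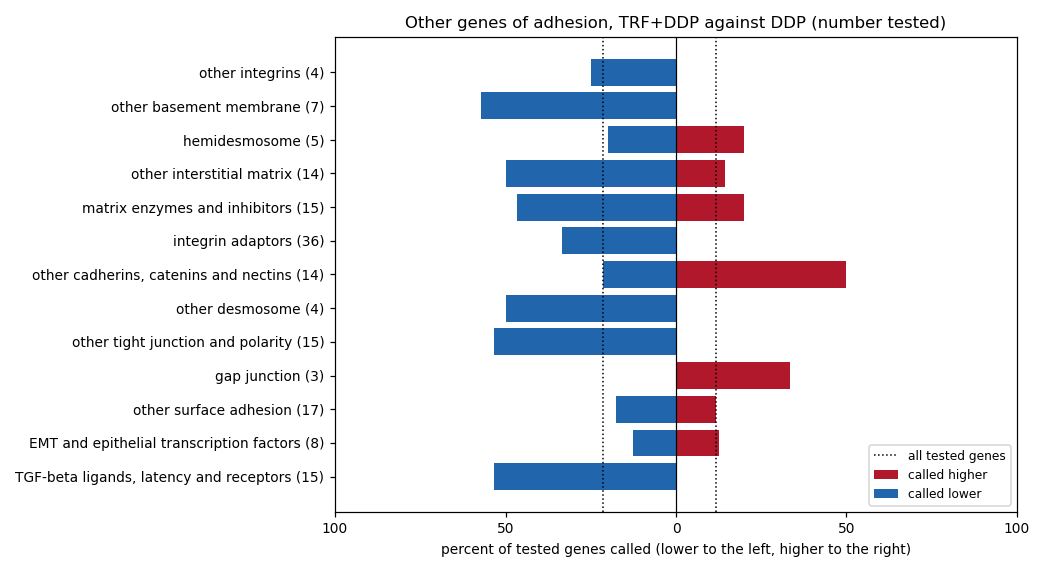
Percent of tested genes called lower (left of 0) and higher (right of 0) in TRF+DDP against DDP for 13 lists of other genes (y axis, with the number tested), 11 of cell adhesion and 2 of transcription factors and TGF-beta signalling. Dotted lines mark the shares of all tested genes, 21.4% lower and 11.8% higher. The list of other cadherins, catenins and nectins reaches farthest to the right (7 of 14 genes higher), and the basement membrane list (4 of 7) and the TGF-beta and tight junction lists (8 of 15 each) reach far to the left.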

How the data were processed

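RNA from 12 libraries of A549/DDP cells was selected with oligo(dT), and the authors, as their methods state, cleaned the reads (SeqPrep, sickle), mapped them with HISAT2, ran StringTie and deposited TPM per gene and library. The submitters' processing notes also name edgeR. The authors' group means were not used. Genome build, tool versions and any use of strand were not given in the sources used here. Depth per library is unknown.

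TPM was analysed as log2(TPM + 1) where a gene averaged 1 TPM or more (13854 of 60902) with limma 3.58.1 in R 4.3.3 (trend and robust empirical Bayes, 1 fit of 4 groups). Genes were called at a Benjamini-Hochberg adjusted p under 0.05 over all tested genes and a fold over 1.5, the interaction at the adjusted p alone. The fit was tested on simulated data. Positions came from GENCODE v29 and promoter sequences from RefSeq (GRCh38.p14). Ratios, correlations, exact tests and figures used Python 3.11.15, scipy 1.17.1, pandas 2.3.3, numpy 2.4.6 and matplotlib 3.10.9.

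The genes and lists, and the rule for naming genes, were chosen with earlier results of these data known. All 47 genes are named. Values per library are given, in each role group, for the 2 largest called rises and the 2 largest called falls in TRF+DDP against DDP, and for any gene called in DDP against CON. COL4A1 was added beside COL4A2 after its values were seen. Of other lists, the 2 largest called rises and falls with a group mean of at least 5 TPM are named. Alternatives included leaving out each library, fitting the compared groups alone, blocking on replicate number, a pseudocount of 0.1, no filter or 1 TPM in every library, limma without trend, quantile normalization, and scaling in the manner of TMM (trims of 0.3 and 0.05).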

Additional observations from a re-analysis of the deposited data

Results flagged for a closer look

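The effect of restricted medium on 21 of the 41 genes differed between cells with and without cisplatin, by the interaction in limma at an adjusted p under 0.05. Over all tested genes 29.8% were called in the interaction, 16.3% below 0 and 13.5% above 0. Values are log2 differences, (TRF+DDP minus DDP) minus (TRF minus CON). Among collagens they were −1.49 for COL5A1, −1.05 for COL1A1, −0.83 for COL4A1 and −0.74 for COL4A2. Among integrins they were −1.28 for ITGB3, −0.53 for ITGB5 and −0.31 for ITGA3. The laminin chains had −0.52 for LAMB1, −0.26 for LAMA5, 0.32 for LAMB2 and 0.34 for LAMB3.

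Cell to cell genes had −1.16 for CDH2, −0.45 for CTNND1, −0.32 for CTNNA1, −0.39 for CLDN1, −0.32 for JUP, −0.22 for NECTIN2, 0.55 for DSP and 0.43 for PERP. The other surface molecules had −0.82 for L1CAM and 0.25 for CD44. The calls of LAMA5, LAMB2, LAMB3 and NECTIN2 lay close to the threshold. On leaving out 1 library the values ran from −0.30 to −0.20 for LAMA5, 0.25 to 0.38 for LAMB2, 0.25 to 0.41 for LAMB3 and −0.26 to −0.20 for NECTIN2, with adjusted p up to 0.0776, 0.0801, 0.0785 and 0.0573 in limma. The call of NECTIN2 was lost without CON replicate 1, DDP replicate 1 or 3, or TRF+DDP replicate 1, and that of LAMA5 without CON replicate 1 or 2, DDP replicate 1 or 3, TRF replicate 2 or 3, or TRF+DDP replicate 3. The call of LAMB2 was lost without CON replicate 2 or 3, DDP replicate 2 or 3, TRF replicate 3, or TRF+DDP replicate 1 or 2, and that of LAMB3 without any single CON or TRF+DDP library, DDP replicate 2 or TRF replicate 3. With no filter on low values the calls of LAMA5, LAMB1, LAMB2 and LAMB3 were lost. Fitting limma without trend also lost those of LAMA5, LAMB2 and LAMB3. The reason for these differences was not tested.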

How the results depend on the processing

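The count of called genes in TRF+DDP against DDP (25) was 22 with quantile normalization and with TMM-style scaling, and no called gene reversed in any alternative. On leaving out 1 library the counts ran from 24 to 27 in TRF+DDP against DDP, 7 to 10 in TRF+DDP against TRF, 22 to 24 in TRF+DDP against CON, 24 to 25 in TRF against CON, 0 to 2 in DDP against CON and 18 to 22 in the interaction. With a pseudocount of 0.1 the count in DDP against CON was 2, not 0. The replicate block gave 25 genes in TRF+DDP against DDP and changed no other count by over 1.5 times. No pairing of libraries by replicate number was detected: same-number deviations correlated at −0.08 to 0.08, and 0 of 18 pairs exceeded 0.1. With a pseudocount of 0.1 the cadherin ratio in TRF+DDP against DDP was 1.34 and not −0.08. At a mean of at least 10 TPM the correlation of span with change over 36 genes was −0.31 in TRF+DDP against DDP, −0.29 in TRF+DDP against CON and −0.19 in TRF against CON, beside −0.22, −0.20 and −0.08 over 41. The spread of 3 libraries limits every comparison.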

Other observations

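Genes of TGF-beta signalling, which drives matrix production in many cell types, and transcription factors of epithelial and mesenchymal states were also counted. In TRF+DDP against DDP, 8 of 15 tested TGF-beta genes fell and 0 rose, where 21.4% of all tested genes were lower and 11.8% higher. The median log2 fold change of the 15 was −0.61, beside −0.10 over all tested genes. LTBP1, which stores latent TGF-beta in the matrix, averaged 0.273 ± 0.117 TPM in TRF+DDP and 8.10 ± 0.517 TPM in DDP (log2 fold change −2.84), and the co-receptor TGFBR3 averaged 1.503 ± 0.306 TPM and 8.58 ± 0.336 TPM (−1.94). LTBP1 was under 1 TPM in TRF+DDP, so its call is a description. In TRF against CON 7 of the 15 fell and 0 rose, where 17.1% of all tested genes were lower and 8.41% higher.

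Of 8 tested transcription factors 1 fell and 1 rose in TRF+DDP against DDP, beside 21.4% lower and 11.8% higher over all tested genes. ELF3, a factor of differentiated epithelium, fell, with 0.680 ± 0.403 TPM in TRF+DDP and 14.3 ± 1.05 TPM in DDP (log2 fold change −3.21). ELF3 averaged 0.487 TPM in TRF and passed the filter of 1 TPM only through DDP and CON libraries, so its call is a description. SNAI2, a repressor of E-cadherin that was chosen after its values were seen, rose at low levels, with 1.77 ± 0.421 TPM in TRF+DDP and 0.460 ± 0.0819 TPM in DDP (0.91). SNAI2 was under 1 TPM in DDP, so its call is a description too. SNAI1, TWIST1, TWIST2, ZEB1, ZEB2 and KLF5 were not called. In TRF against CON SNAI2 rose (0.99), and ELF3 (−3.67) and SNAI1 (−0.68) fell.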
